A study of Homo sapiens with 21 samples.

Results

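Ubiquitin is joined to histone H2B by the E2 enzymes UBE2A and UBE2B together with the RNF20-RNF40 E3 ligase, which WAC, a WW domain adaptor, brings to transcribing RNA polymerase II. The PAF1 complex, built from PAF1, CTR9, CDC73, RTF1 and LEO1, travels with the polymerase and stimulates this reaction. The resulting mark, H2Bub1, lies over transcribed gene bodies and is linked to elongation and to methylation of histone H3. The transcripts of these 10 genes are described here during the differentiation of human induced pluripotent stem cells (iPSCs) into cardiomyocytes (CMs) and in CMs without UBE2B.

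The members were all rows whose gene name is UBE2A, UBE2B, RNF20, RNF40, WAC, PAF1, CTR9, CDC73, RTF1 or LEO1 in 6 deposited result tables. These tables list 21537 transcripts of 11851 genes, of which 11 transcripts belong to 8 of the 10 genes. They fill 17 rows, and no transcript of CDC73 or RTF1 is listed anywhere. A table holds only transcripts with a q-value of at most 0.05, so a transcript that is missing either did not pass that limit or was not tested.

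Poly-A RNA was sequenced from PGP1, an established human iPSC line of wild-type genotype, and from its derivatives at 4 later stages. These were the mesoderm stage, called M, the stage of cardiac mesoderm, CMes, that of cardiac progenitors, CP, and the CM stage. Each of the 5 stages has 3 libraries. Another 6 libraries came from CMs of the same iPSC line that carry UBE2B-/-, 3 from UBE2B-/-1 and 3 from UBE2B-/-2. These lines were made in separate CRISPR-Cas9 experiments with guides near the start of UBE2B, each was picked as colonies until pure, and only beating mutant CMs entered the comparison with wild type. All CMs had been selected in lactate, and the mutant cells were seeded more densely than wild type. In the authors' staining, only part of the beating mutant cells expressed TNNT2. Most mutant cells kept brachyury, the product of TBXT, at the CM stage. Replicates were plates whose differentiation began on separate occasions. The tables give no value per library, so depth is unknown and each value below is the mean of a group of 3 libraries.

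The stage labels were checked against their markers. All 7 CM markers examined (ACTN2, MYH6, MYH7, MYL7, RYR2, TNNT2 and TTN) were listed as higher at CM than at CP, and 4 of 5 iPSC markers were listed as lower. The early steps matched less fully. From iPSC to M, 3 of 4 M markers were higher and 1 of 5 iPSC markers, DPPA4, was lower. From M to CMes, 4 of 6 CMes and CP markers were higher and 3 of 5 iPSC markers lower. Of 4 M markers at that step, TBXT was lower, but EOMES and MESP1 were higher. For EOMES this rested on ENST00000449599.3, its most abundant transcript listed there, with a mean of only 3.65 estimated counts. In bulk RNA, fewer cells of a type and less RNA per cell cannot be told apart.

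UBE2A and UBE2B are close homologs, so it matters for every value below whether their reads can be separated. Their coding sequences in GENCODE 44 are both 456 bases long and are identical at 367 of them (80.5%). Of the 152 codons, 80 differ, and 66 of these differ only in their base 3. The longest identical run is 25 bases, and the 2 genes share 0 sequences of 31 bases, the word length Kallisto uses by default. Codons 78 to 98, around the cysteine at codon 88 that carries the ubiquitin, are shown because they are the part of the E2 pair on which catalysis turns, with capitals at the 9 of 63 bases that differ:
UBE2A: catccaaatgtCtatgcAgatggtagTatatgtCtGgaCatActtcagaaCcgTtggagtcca
UBE2B: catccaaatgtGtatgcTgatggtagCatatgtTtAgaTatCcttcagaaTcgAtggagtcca

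Transcripts of a single gene are harder to tell apart. Of the 31-base words of RNF20 ENST00000389120.8, 79.4% occur in no other annotated transcript. The share was 57.9% for CTR9 ENST00000361367.7, 17.1% for PAF1 ENST00000221265.8 and 4.82% for LEO1 ENST00000299601.10. Every word of UBE2A ENST00000371558.7 and of WAC ENST00000347934.8 is found in at least 1 other transcript, with 0 words unique to either and 0 words in another gene. For these, the estimate divides reads among the 14 annotated transcripts of UBE2A or the 29 of WAC.

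**Figure D1:**
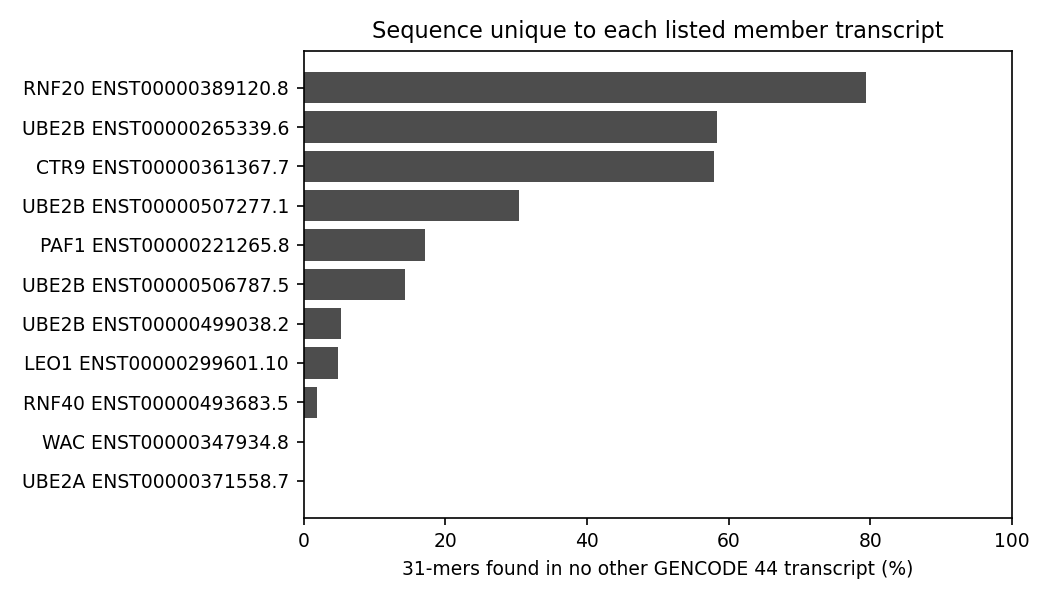
Share of 31-base words (horizontal axis, %) that occur in no other GENCODE 44 transcript, for each of the 11 listed member transcripts (bars). RNF20 stands highest at 79.4%, and UBE2A and WAC have 0 unique words.

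The question at each transition was which genes change their transcript level between neighbouring stages. From iPSC to M, 0 member transcripts passed the Wald test of Sleuth, where 4.84% of all 68446 transcripts tested were listed in either direction. The smallest absolute z listed at this transition was 3.03. The unadjusted p-values of the members are not known here, because unlisted transcripts have no row.

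From M to CMes, 2 member transcripts were listed, both higher at CMes, where 5.15% of all transcripts tested were listed as higher. How many member transcripts were tested is not known at any step, so counts of them cannot be read as shares. UBE2A (ENST00000371558.7, chromosome X of GRCh38, 119574563 to 119584423, plus strand, 6 exons), which encodes an E2 of the reaction, had 798 estimated counts at M as its group mean and 1056 at CMes. Its log2 change was 0.40 (standard error 0.14, Sleuth q-value 0.0450), the smallest change among the member rows of all tables, and it lies close to the q-value limit. RNF40 encodes the partner of RNF20 in the E3 ligase. Its listed transcript ENST00000493683.5 (chromosome 16, 30762336 to 30776307, plus strand) retains an intron and is not annotated as coding. It was listed at a group mean of 0 at M and of 108 estimated counts at CMes (Sleuth q-value 0.00379). An estimate of 0 can come from reads being given to other transcripts of the gene, and 1.91% of the words of this transcript are its own. The technical variance from resampled reads made up 73.6% of the variance behind its test, and 38.7% of its words also occur in another gene. The coding transcripts of RNF40 are not listed at any transition.

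From CMes to CP, 3 members were listed and all 3 fell, where 5.08% of all 71328 transcripts tested were listed as lower. These were RNF20, a RING finger subunit of the E3 ligase, and the PAF1 complex subunits LEO1 and CTR9. RNF20 (ENST00000389120.8, chromosome 9, 101533853 to 101563344, plus strand, 20 exons) had a group mean of 2152 at CMes against 1189 at CP, in estimated counts. That is a log2 change of -0.86 (standard error 0.10, Sleuth q-value 8.98e-15). LEO1, which helps the complex to bind chromatin (ENST00000299601.10, chromosome 15, 51938025 to 51971778, minus strand, 12 exons), had 1220 and 653.9 estimated counts, and its log2 change was -0.90 (standard error 0.12, Sleuth q-value 4.37e-13). CTR9, a scaffold subunit (ENST00000361367.7, chromosome 11, 10751246 to 10779746, plus strand, 25 exons), had 2500 and 1787 estimated counts and fell less, by 0.48 on the log2 scale (standard error 0.10, Sleuth q-value 3.38e-05).

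LEO1 fell further than CTR9 by 0.41 on the log2 scale (95% interval of the difference -0.71 to -0.12), and RNF20 fell further than CTR9 by 0.37 (-0.65 to -0.09). These intervals treat the errors of the 2 transcripts as independent. By absolute z, RNF20 ranked 744 and LEO1 879 among the 7519 transcripts listed at this transition. The sizes were moderate, since the median absolute log2 change was 0.86 over the 3 members and 1.06 over all listed transcripts. Under a t distribution with 4 residual degrees of freedom, which replaces the normal, 0 of the 3 passed. CTR9 also misses a minimum change of 1.5-fold. All 3 are MANE Select transcripts, the 1 transcript per gene chosen as its standard. Of the 10 such transcripts of the members 3 fell, and of all 19061 MANE Select transcripts 10.1% were listed as lower, including those of genes these cells do not express. Cell markers moved at the same transition, with 4 of 5 iPSC markers and 4 of 4 M markers lower, and 6 of 7 CM markers, 5 of 6 CMes and CP markers and 3 of 4 mesenchymal markers higher. Of 5 endoderm and epithelial markers, 4 were higher (AFP, APOA1, EPCAM and FOXA2) and SOX17 was lower, and of 3 smooth muscle markers ACTA2 was higher. The endothelial markers were not listed. The part of these shifts in the changes of RNF20, LEO1 and CTR9 was not tested.

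The 250 bases before the annotated start of RNF20, CTR9 and LEO1 are shown because these 3 members fell together (RefSeq, GRCh38.p14). Capitals mark every match, on either strand, to GGGCGG (the SP box), CCGGAAG (ETS), CCAAT (NFY), ACGTCA (part of the cAMP response element), AAGATGGC (YY1), TTCCCGC (E2F) or GCGCATGC (NRF1). Matches may overlap or adjoin:
RNF20, chr9:101533603-101533852, plus strand: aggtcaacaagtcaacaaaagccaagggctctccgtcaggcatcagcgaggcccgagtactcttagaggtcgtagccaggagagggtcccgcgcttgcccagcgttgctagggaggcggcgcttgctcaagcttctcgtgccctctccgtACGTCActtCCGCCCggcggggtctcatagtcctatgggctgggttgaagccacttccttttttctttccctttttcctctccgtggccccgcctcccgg
CTR9, chr11:10750996-10751245, plus strand: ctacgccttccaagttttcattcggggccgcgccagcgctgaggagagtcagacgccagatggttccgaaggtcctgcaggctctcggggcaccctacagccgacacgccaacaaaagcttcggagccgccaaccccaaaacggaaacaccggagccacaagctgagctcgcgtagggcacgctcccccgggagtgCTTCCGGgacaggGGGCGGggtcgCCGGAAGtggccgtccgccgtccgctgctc
LEO1, chr15:51971779-51972028, minus strand: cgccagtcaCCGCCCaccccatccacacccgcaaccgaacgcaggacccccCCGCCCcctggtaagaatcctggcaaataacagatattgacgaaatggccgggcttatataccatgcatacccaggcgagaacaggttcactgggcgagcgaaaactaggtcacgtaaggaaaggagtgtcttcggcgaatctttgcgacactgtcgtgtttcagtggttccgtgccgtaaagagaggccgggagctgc

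GGGCGG occurs in all 3 windows and in 42.6% of the 35116 windows of this length in the RefSeq table. It is not particular to these 3, since 8 of the 9 windows of all members hold it, among them those of PAF1 and UBE2A. CCGGAAG occurs in the window of CTR9 and in 8.52% of all windows. ACGTCA occurs in that of RNF20, in those of PAF1 and RNF40, and in 7.10% of all. CCAAT, found in 32.0% of all windows, occurs in none of the 3 but in those of PAF1 and RNF40. AAGATGGC (1.36% of all windows), TTCCCGC (5.52%) and GCGCATGC (2.63%) occur in none of the 9 windows of the 8 members with an entry. UBE2B and CDC73 have no entry. A match is a description of these letters only.

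The transition from CP to CM listed the most members, 9 transcripts of 6 genes. There, 8 transcripts of PAF1, UBE2B, UBE2A, RNF20 and CTR9 rose, where 10.1% of all 69937 transcripts tested were listed as higher, and 1 transcript of WAC fell, where 8.42% were listed as lower. Counted by MANE Select transcripts, 5 of the 10 members rose, and 15.9% of all MANE Select transcripts were listed as higher. The median absolute log2 change was 1.22 over the 9 member transcripts and 1.83 over all transcripts listed. With a t distribution on 4 residual degrees of freedom, 1 of the 9, that of PAF1, passed. RNF20 and CTR9 miss a minimum change of 1.5-fold at this transition.

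PAF1, which gives the complex its name (ENST00000221265.8, chromosome 19, 39385629 to 39391106, minus strand, 14 exons), had the lowest q-value of the members. Its mean was 564.8 estimated counts at CP and 1747 at CM, a log2 change of 1.63 (standard error 0.14, Sleuth q-value 9.96e-29). It ranked 473 by absolute z among 12982 listed transcripts. CTR9 had 1582 estimated counts at CP and 2264 at CM, a log2 change of 0.52 (standard error 0.13, Sleuth q-value 0.000910). PAF1 therefore rose by 1.11 more than CTR9 on the log2 scale (95% interval 0.73 to 1.49, errors taken as independent). LEO1, CDC73 and RTF1 are not listed here, where the smallest listed absolute z was 2.60.

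All 4 UBE2B transcripts found in any table rose from CP to CM. The main coding transcript ENST00000265339.6 (chromosome 5, 134371569 to 134392108, plus strand, 6 exons) had a mean of 165 estimated counts at CP and 407 at CM. Its log2 change was 1.30 (standard error 0.21, Sleuth q-value 2.69e-08). The coding transcript ENST00000507277.1 had 130 and 317 estimated counts, with a log2 change of 1.29 (standard error 0.25). A shorter coding transcript, ENST00000506787.5, had 76.4 and 179 estimated counts, with a log2 change of 1.22 (standard error 0.31). The 4th, ENST00000499038.2 (134385603 to 134390783), has no defined coding sequence and begins 14034 bases after the start of the main transcript. It had 49.4 and 155 estimated counts and a log2 change of 1.64 (standard error 0.44).

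The 4 UBE2B changes ran from 1.22 to 1.64 on the log2 scale, and their 95% intervals overlap. Summed, the listed UBE2B transcripts had 421 estimated counts at CP and 1057 at CM. The main transcript held 39.3% of that sum at CP and 38.5% at CM, so the make-up of the listed transcripts moved little. They overlap in sequence and are not independent measurements of the gene.

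UBE2A, the other E2, had 811.5 estimated counts at CP and 1463 at CM, a log2 change of 0.85 (standard error 0.15, Sleuth q-value 1.13e-07). The change of the main UBE2B transcript was larger by 0.45, with a 95% interval of -0.06 to 0.95 that includes no difference. RNF20 had 1053 and 1521 estimated counts, and its log2 change was 0.53 (standard error 0.13, Sleuth q-value 0.000881). WAC (ENST00000347934.8, chromosome 10, 28533313 to 28620543, plus strand, 13 exons, coding but not the MANE Select transcript) went the other way. It had 845 estimated counts at CP and 527 at CM, a log2 change of -0.68 (standard error 0.18, Sleuth q-value 0.00128). The difference between the RNF20 and WAC changes was 1.21 (95% interval 0.78 to 1.65, errors taken as independent). No other WAC transcript is listed, so what the gene as a whole did cannot be read from the table. At this transition the 7 CM markers and 3 smooth muscle markers rose. Of the others, 4 of 5 iPSC, 4 of 5 endoderm and epithelial, 1 of 4 M and 1 of 3 endothelial markers fell, 2 of 4 mesenchymal markers moved each way, and of 6 CMes and CP markers 3 rose and 2 fell. Their part in the member changes was not tested.

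**Figure D2:**
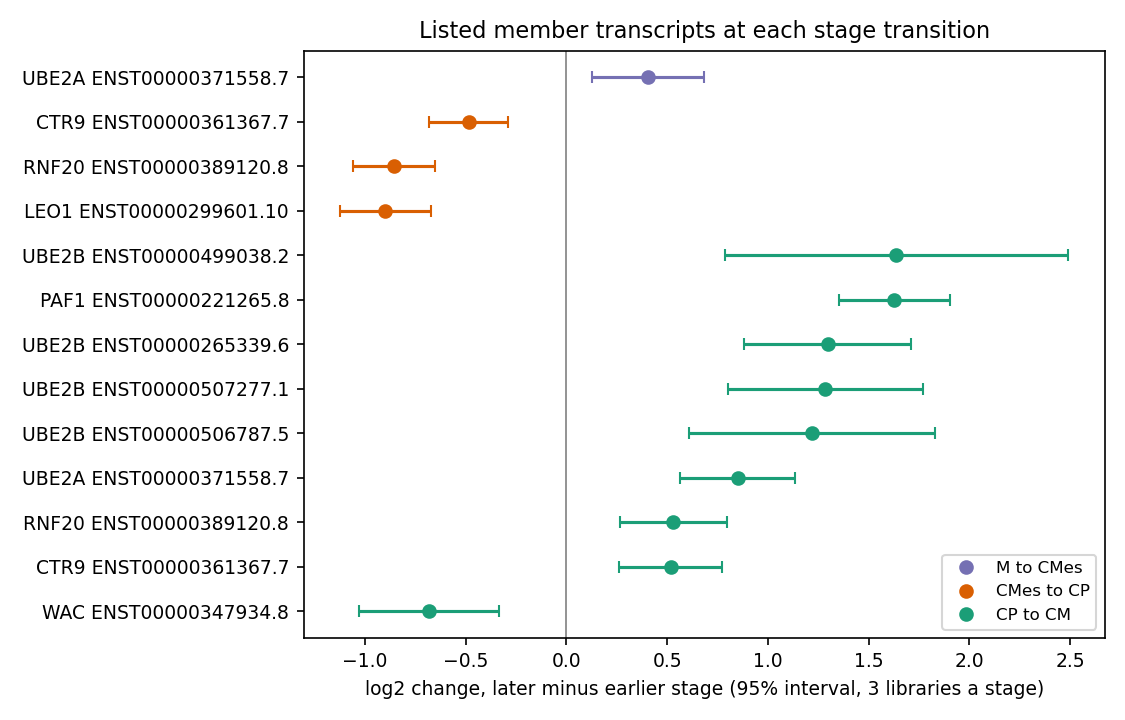
Log2 change from the earlier to the later stage (horizontal axis) with its 95% interval for the 13 listed member rows of 3 transitions, coloured by transition, without RNF40, which was listed at 0 at M. The 3 CMes to CP changes lie left of 0, and the CP to CM changes lie right of 0 except for WAC at -0.68.

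Each table is scaled by itself, so stages were placed on the scale of the CP to CM table through the stage that neighbouring tables share. For RNF20 and CTR9, both listed from CMes to CM, the CP level from the 2 tables then differed by at most 0.000123 on the log2 scale. Both tables hold the same CP libraries, so this small gap follows from the join and is no check of levels across stages. RNF20 had 484 estimated counts per kb of transcript at CMes, 267 at CP and 386 at CM, and ended at 0.798 of its CMes level. CTR9 had 511, 365 and 523 estimated counts per kb and ended at 1.02 times its CMes level. These ratios of CM to CMes join tables, have no standard error and were not tested. For RNF20, a partial return cannot be told from a full one. LEO1 had 499 at CMes and 268 at CP. At CMes these 3 genes lay between 484 and 511 per kb, with UBE2A at 530.

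UBE2A was the only member followed over 4 stages. It had 400.4 estimated counts per kb at M, 530 at CMes, 457 at CP and 824 at CM, and its CM level was 2.06 times its M level. That ratio also joins tables, has no standard error and was not tested. The step from CMes to CP, a log2 difference of -0.21, is set by the join between tables and was not listed as a change. The main UBE2B transcript stood well below UBE2A per kb, at 73.8 at CP and 182 at CM, a ratio of 0.161 at CP and 0.220 at CM. That order belongs to this transcript. An order of the 2 genes cannot be read, since other transcripts of both are not listed. The 4 listed UBE2B transcripts summed to 421 per kb at CP and 1064 at CM. The sum was 0.921 of the 1 listed UBE2A transcript at CP and 1.29 times it at CM. UBE2B ENST00000506787.5 and ENST00000499038.2 are 500 and 682 bases long, against 1776 for UBE2A. Levels per kb divide by the full annotated length without allowing for fragment length, which sets short transcripts low, so these ratios depend on that choice.

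Per kb, the order at CP was UBE2A, CTR9, WAC, LEO1, RNF20, PAF1 and then the UBE2B transcripts. The orders at CP and at CM also rest on full annotated lengths, which sets the short UBE2B transcripts low. WAC, LEO1, RNF20 and PAF1 lay between 298 and 257 estimated counts per kb. Standard errors of gaps between levels use the residual spread of replicates alone. They are smaller than those of the tests, which take a variance smoothed over transcripts where it is larger. On this spread, the 95% interval of the gap included 0 for each pair of neighbours from WAC to PAF1. WAC stood above PAF1 by 0.21 on the log2 scale (standard error 0.08), which may not hold under the larger variance. At CM the order was UBE2A, PAF1, CTR9 and RNF20, with the UBE2B transcripts and WAC below. RNF20 and UBE2B ENST00000506787.5 (357 per kb) were not separated, and WAC (186) was separated neither from UBE2B ENST00000499038.2 (227) nor from the main UBE2B transcript (182). These UBE2B transcripts were 0.32 apart on the log2 scale (standard error 0.16), just past their residual spread. That gap too may not hold under the larger variance. UBE2A and PAF1 (794 per kb) were separated by 0.05 on the log2 scale, within their spread, while PAF1 stood above CTR9 by 0.60 (standard error 0.05). PAF1 thus had 0.703 of the CTR9 level at CP and 1.52 times that level at CM. The residual standard deviation between replicates of these transcripts was 0.06 to 0.23 on the log2 scale.

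**Figure D3:**
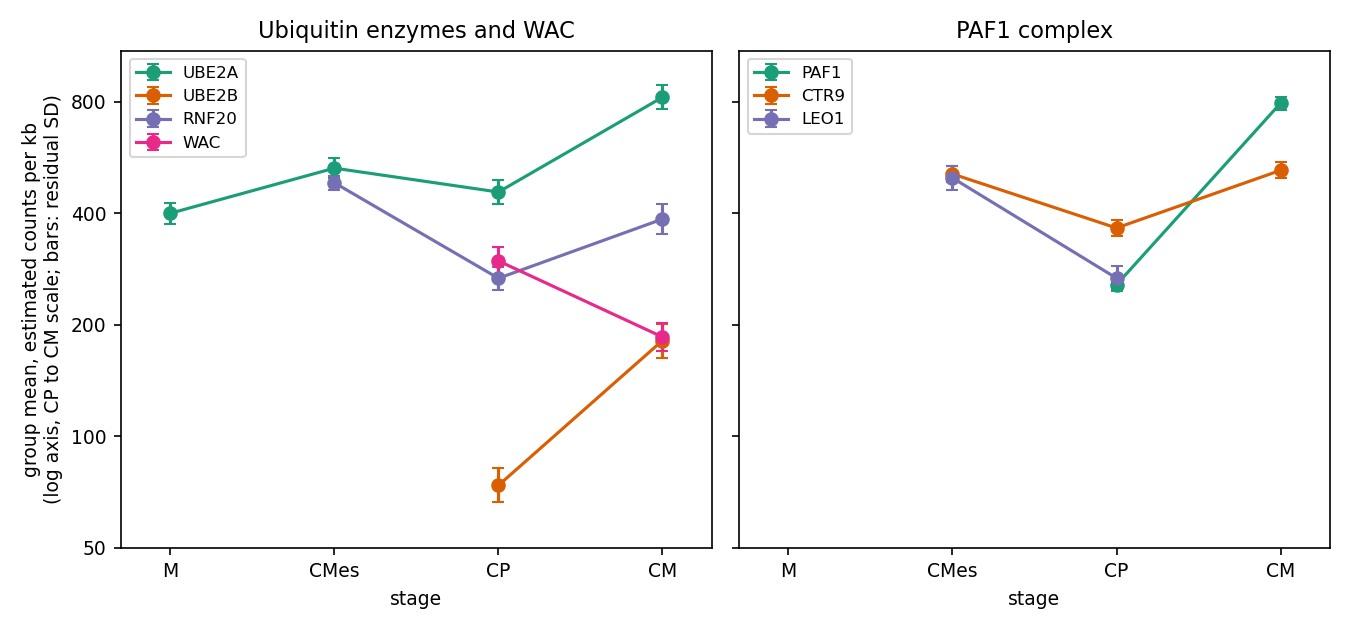
Group mean in estimated counts per kb of transcript (vertical log axis) at M, CMes, CP and CM, on the scale of the CP to CM table, for 1 transcript a gene. Bars are 1 residual standard deviation between libraries. RNF20, CTR9 and LEO1 start near 500 per kb at CMes, and PAF1 climbs from 257 at CP to 794 at CM.

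In UBE2B-/- CMs the question was how the lines differ from wild-type CMs. UBE2B itself is listed for UBE2B-/-1 through ENST00000499038.2 alone. Its mean was 179 estimated counts in wild-type CMs and 47.1 in UBE2B-/-1, a log2 change of -1.91 (standard error 0.53, Sleuth q-value 0.0113). The other 3 UBE2B transcripts that rose from CP to CM are listed for neither line, where the smallest listed absolute z was 3.04. A small edit near the start of a gene need not lower its RNA, and ENST00000499038.2 begins downstream of the main start, so these levels do not check the genotype. The word content is also thin, since 5.21% of the words of ENST00000499038.2 are its own.

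In all, 2 member transcripts were lower in UBE2B-/-1, ENST00000499038.2 and that of UBE2A, where 2.19% of all 65457 transcripts tested were listed as lower. UBE2A had 1688 estimated counts in wild-type CMs and 1051 in UBE2B-/-1, a log2 change of -0.68 (standard error 0.20, Sleuth q-value 0.0168). In UBE2B-/-2, 1 member transcript was listed, WAC, where 2.90% of all transcripts tested were listed as higher. It had 608 estimated counts in wild-type CMs and 979 in UBE2B-/-2, a log2 change of 0.69 (standard error 0.22, Sleuth q-value 0.0407). RNF20, RNF40, PAF1, CTR9, CDC73, RTF1 and LEO1 are listed for neither line. The number of member transcripts tested is not known here either, so these counts do not show more changes among the members than among all transcripts. All 3 listed changes miss a q-value limit of 0.01, and none passed with a t distribution on 6 residual degrees of freedom.

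None of these 3 transcripts is listed for both lines, yet that does not show that the lines differ. Both tables come from 1 fit of 9 libraries, so its variance columns, together with the wild-type mean in the CP to CM table, give the change in the unlisted line. UBE2B ENST00000499038.2 had 60.0 estimated counts in UBE2B-/-2, a log2 change of -1.57 with z = -2.98, just short of the listed limit. UBE2A had 1192 estimated counts in UBE2B-/-2, a log2 change of -0.50 (z = -2.56). WAC had 935 estimated counts in UBE2B-/-1, a log2 change of 0.62 (z = 2.82). These solved changes have the same standard errors as the listed ones.

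The lines were then compared directly, where wild type cancels. UBE2B-/-2 minus UBE2B-/-1 was 0.35 on the log2 scale for UBE2B ENST00000499038.2 (95% interval -0.69 to 1.38), 0.18 for UBE2A (-0.20 to 0.57) and 0.07 for WAC (-0.36 to 0.50). None passed the test of the difference, with q-values of 1.00 by Benjamini-Hochberg over 2924 transcripts, where 0.274% of transcripts passed. An interval that includes 0 does not show that the lines are alike. Because each transcript was seen through the line in which it passed, its listed change tends to be the larger one.

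**Figure D4:**
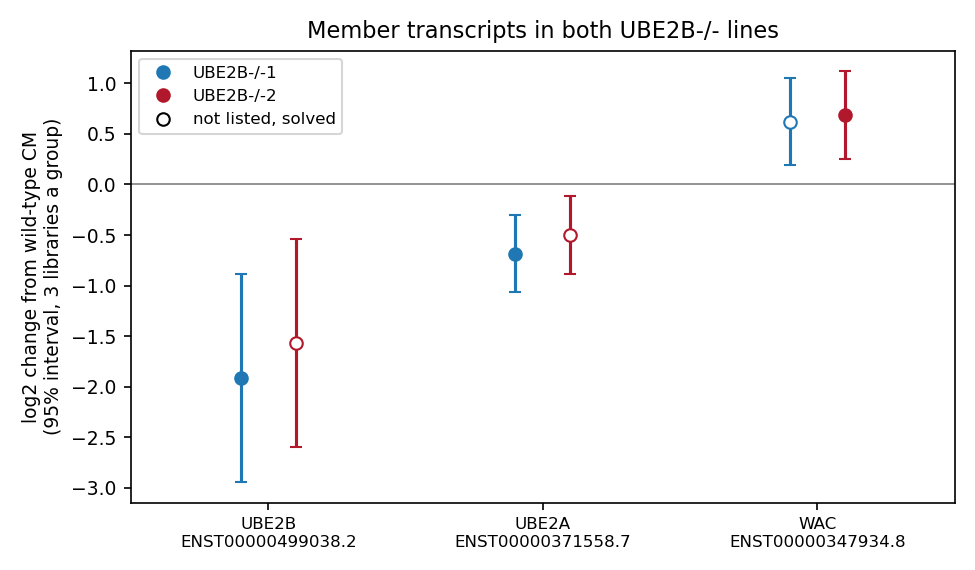
Log2 change from wild-type CMs (vertical axis) with its 95% interval for 3 member transcripts in UBE2B-/-1 and UBE2B-/-2. Filled points are listed in the deposited tables and open points were solved from the variance columns. In both lines UBE2B ENST00000499038.2 and UBE2A lie below 0 and WAC lies above 0.

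For these 3 transcripts the change in the mutants and that from CP to CM can be set side by side, though both use the same wild-type CM libraries, so they are not separate evidence. UBE2A had 0.85 from CP to CM and -0.68 and -0.50 in the lines. WAC had -0.68 and then 0.62 and 0.69. UBE2B ENST00000499038.2 had 1.64 and then -1.91 and -1.57. CM markers moved in the lines too, with 5 of 7 lower in UBE2B-/-1, 6 of 7 lower in UBE2B-/-2 and 0 higher in either. Sums of markers hold only transcripts listed as changed in at least 1 line, which favors large differences. They leave out all other transcripts of these genes. Over the 6 CM markers that could be summed in all groups, these transcripts had 364117 estimated counts in wild type, 68502 in UBE2B-/-1 and 70963 in UBE2B-/-2. Mesenchymal markers (COL1A1, COL3A1 and LUM) summed to 10110, 97866 and 251776 estimated counts, and of the 4 on that list 1 was higher in UBE2B-/-1 and 3 in UBE2B-/-2. KDR, 1 of 3 endothelial markers, was higher in UBE2B-/-2 and had 244 estimated counts in wild type, 621 in UBE2B-/-1 and 846 in UBE2B-/-2. PECAM1 and CDH5, the other endothelial markers, were listed for neither line. Of 6 CMes and CP markers, GATA4 was higher in both lines and PDGFRA in UBE2B-/-1, and of 5 endoderm and epithelial markers SOX17 was higher in UBE2B-/-1 and EPCAM lower in UBE2B-/-2. The 3 smooth muscle markers and every iPSC and M marker were listed for neither line. The part of these shifts in the member changes was not tested.

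Other genes of the pathway were taken as 49 partners, each spoken for by its most abundant listed transcript. Of these, 41 are in at least 1 of the tables, and the background is the 11851 genes listed in any table, counted the same way. From iPSC to M, 15 of the 41 partners were listed (36.6%, against 22.0% of all), 9 higher and 6 lower. From M to CMes, 16 were listed (39.0%, against 39.7%), 7 higher and 9 lower. From CMes to CP, 13 were listed (31.7%, against 45.2%), of which 11 fell, while 51.9% of all genes listed there were lower. From CP to CM, 31 were listed (75.6%, against 66.5%), of which 12 rose and 19 fell, while 45.7% of all genes listed there were lower. Of the 6 members listed from CP to CM, 5 rose, and 54.3% of all genes listed were higher. The remaining PAF1 complex subunit, SKIC8 (also called WDR61), is in no table.

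Both subunits of FACT, the histone chaperone that works with H2Bub1 during elongation, fell at both late transitions. SUPT16H had log2 changes of -0.49 (standard error 0.11) from CMes to CP and -0.82 (standard error 0.15) from CP to CM. For SSRP1 the values were -0.31 (standard error 0.11) and -1.12 (standard error 0.14). PAF1, UBE2B, UBE2A, RNF20 and CTR9 rose at the latter of these.

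Among the H2B deubiquitinases and the module around USP22, 10 of 13 were listed from CP to CM, 4 higher and 6 lower, at the transition that listed the most genes. The largest absolute z belonged to USP49, which fell by 1.06 on the log2 scale (standard error 0.17), and USP51, which fell by 1.35 (standard error 0.22). USP44, a deubiquitinase linked to the pluripotent state, fell by 1.93 on the log2 scale (standard error 0.24) from iPSC to M and by 2.49 (standard error 0.33) from CMes to CP.

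Of 11 genes of the H3K4 and H3K79 methyltransferases, whose activity H2Bub1 promotes, 6 were listed from CP to CM, 2 higher and 4 lower. ASH2L fell by 2.21 on the log2 scale (standard error 0.19) and WDR5, another core subunit of the H3K4 enzymes, by 0.85 (standard error 0.14). The same ASH2L transcript had risen by 0.68 (standard error 0.15) from CMes to CP. DOT1L, the H3K79 enzyme, was higher at CP than at CMes by 0.45 on the log2 scale (standard error 0.12), and it fell by 0.51 (standard error 0.13) from CP to CM.

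Of 18 elongation factors, 10 were listed from CP to CM, 4 higher and 6 lower. The largest absolute z there were those of TCEA1, which fell by 0.86 on the log2 scale (standard error 0.17), and LARP7, whose transcript ENST00000344442.10 rose by 0.69 (standard error 0.16). HEXIM1 and LARP7, which hold the elongation kinase P-TEFb inactive in the 7SK particle, had the largest absolute z of this group at both early transitions. HEXIM1 changed by -1.19 (standard error 0.17) from iPSC to M and by 1.74 (standard error 0.14) from M to CMes. For LARP7, another transcript, ENST00000509622.5, was the most abundant one listed, and it changed by -1.89 (standard error 0.24) and 2.16 (standard error 0.23). These 2 transitions share the M libraries. From CMes to CP the same LARP7 transcript fell by 4.45 on the log2 scale (standard error 1.02).

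In the mutants, 9 of the 41 partners were listed for UBE2B-/-1 (22.0%, against 20.6% of all), 6 higher and 3 lower. For UBE2B-/-2, 11 were listed (26.8%, against 20.4%), 6 higher and 5 lower. NELFB, a subunit of the pausing factor NELF, was higher by 1.03 on the log2 scale in UBE2B-/-1 and by 1.03 in UBE2B-/-2 (standard error 0.20 each). CDK13, a kinase of the polymerase tail, was higher by 1.22 and 1.41 (standard error 0.24 each). UBA1, the E1 that charges E2 enzymes with ubiquitin, was higher by 0.78 and 0.81 (standard error 0.21 each). Among the E3 ligases that also work with UBE2A or UBE2B, UBR1 was listed for UBE2B-/-1 at -0.68 (standard error 0.19) and UBR2 for UBE2B-/-2 at -0.73 (standard error 0.22). The lines share their wild-type libraries, so the changes in both are not independent of each other.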

How the data were processed

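Poly-A RNA-seq of 21 libraries in 7 groups of 3 was used through 6 deposited tables. The authors trimmed reads, quantified transcripts with Kallisto against hg38, and fitted Sleuth. The authors deposited p-values and q-values of a Wald test, adjusted by Benjamini-Hochberg. The deposited effects and means are natural log values of estimated counts plus 0.5, normalized by the authors within each fit. The deposited variance columns are scores on the squared scale of these values. The tables hold the authors' own comparisons and 0 columns of per-sample values. The deposited effect was used as it stands for direction and size, since no other values were given, and its size at the stage transitions was checked against the size that the variance columns imply. Standard errors, z, p and q were recomputed from the variance columns and the number of transcripts tested, which follows from each q-value and the rank of its p-value. The recovery was tested on simulated data.

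Group means follow from effect and mean. Levels per kb divide them by the full transcript length in GENCODE 44. The scale of neighbouring tables was joined by the median offset at the shared stage. The change in an unlisted mutant line has 2 solutions. The one whose wild-type mean matched the CP to CM table within 0.02 (natural log) was taken where the other did not. Depth is unknown, so precision is given by the standard error alone. Transcripts were matched to GENCODE 44 (GRCh38) without the version, which differed for 2 UBE2B transcripts, and RefSeq promoters by symbol, with 8 of 10 genes matched. Python 3.11.15, numpy 2.4.6, pandas 2.3.3, SciPy 1.17.1, numba 0.67.0 and matplotlib 3.10.9 were used.

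The named genes were the 10 members with every listed transcript, and partners as counts, named with every listed value or as the 2 with the largest absolute z of a group in a comparison. DOT1L at both late transitions was chosen after its values were seen. The members and lists were chosen with earlier results of these data known. Alternatives were a minimum change of 1.5-fold on either of 2 log scales, a q-value limit of 0.01, a t distribution, each transcript's own variance, a minimum mean of 10 estimated counts and 2 other offsets.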

Additional observations from a re-analysis of the deposited data

How the results depend on the processing

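No alternative re-estimated the listed change of a member, so the direction of these changes could not reverse and was not tested. The alternatives only show which calls still pass. A t distribution on 4 or 6 residual degrees of freedom kept the standard errors of the main test and replaced only the normal. With it, 0 member transcripts passed from M to CMes, 0 from CMes to CP and 1 (PAF1) from CP to CM. It left 0 in UBE2B-/-1 and 0 in UBE2B-/-2. With each transcript's own variance, all 17 calls held. They had to hold, because the main test uses the larger of that variance and a smoothed one. A q-value limit of 0.01 left 1 from M to CMes and 0 in either line. A minimum change of 1.5-fold left 1 from M to CMes, and the same number read on the log2 scale but applied to the natural-log effect left 1 from M to CMes, 1 in UBE2B-/-1 and 0 in UBE2B-/-2. Leaving out transcripts with a mean under 10 estimated counts removed RNF40 and left 1 from M to CMes. By single change, the 1.5-fold minimum ended the calls of UBE2A from M to CMes, CTR9 from CMes to CP, and RNF20 and CTR9 from CP to CM. The stricter minimum also ended those of WAC from CP to CM and in UBE2B-/-2 and of UBE2A in UBE2B-/-1. All other counts stayed within 1.5 times the main one. The offsets moved the UBE2A step from CMes to CP between -0.22 and -0.21. No member is listed for both lines, so the comparison of the lines, which had been set over transcripts listed for both, gave 0 member tests. Solving the unlisted line was added after seeing the data and also gave 0 members that differ. No paired analysis was possible because the tables hold no values per library, and for the same reason no replicate could be left out in turn. The unknown depth limits what an unlisted transcript says.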
